A study of Mus musculus with 9 samples.

Results

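The 10 genes described here are the annexins Anxa1, Anxa2, Anxa5 and Anxa6, the S100 genes S100a6, S100a10 and S100a11, the galectin gene Lgals1, the hyaluronan receptor gene Cd44 and the epithelial membrane protein gene Emp1. They were taken by symbol from the 54232 genes in the count files, and all 10 were found and passed the filter on low counts that left 15712 genes. They are linked to reactive glia and mesenchymal cells, and they were chosen by their levels in these same libraries, as earlier results had shown them, so the differences between groups given below are a description of the genes and not independent evidence that such genes move.

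The 9 libraries came from cortical neurons of wildtype mice of the outbred CD1 stock, in 3 groups of 3 repeats named by their titles: control, PA and PA + PS2. The abbreviation PA is for peptide amphiphile, a self-assembling molecule with a lipid-like tail on a short peptide, and its libraries carry the name IKVAV, a cell-binding sequence of laminin. The PA + PS2 libraries carry the name IKVAV plus PEDOT-S-OH, a form of the conductive polymer PEDOT, and the control libraries the name PDL, which the labels do not spell out. A treatment label of peptide amphiphile stands on the controls too, against their titles, and the labels give no times, doses or ages. Nor do they state that repeats are independent cultures, and p-values then measure only the spread between these libraries, which may be technical.

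Annexins are proteins that bind phospholipid membranes when calcium rises, and they take part in membrane repair, vesicle traffic and the link between membranes and actin. S100 proteins are small calcium-binding proteins of the EF-hand type, and several of them bind an annexin: S100A10 forms a complex with annexin A2, and S100A11 binds annexin A1. In the brain, Cd44, Emp1 and S100a10 are used as markers of reactive astrocytes, while most of the 10 genes are also highly expressed in fibroblasts, vessel-associated cells and other mesenchymal cells.

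Total counts ran from 20746851 to 27237398 per library, and levels are given as CPM, read counts scaled to library size. The cells carried strong neuronal RNA: Tubb3, a neuronal tubulin, stood at 2246 ± 206 CPM in control (SD, n = 3), 2454 ± 646 in PA and 2435 ± 143 in PA + PS2. Some libraries stood apart in non-neuronal RNA. Control repeat 1 had the lowest control sums of 10 markers of dividing and progenitor cells, 185 CPM against 311 and 365 in control repeats 2 and 3, and of 12 astrocyte markers, 375 CPM against 443 and 506. PA + PS2 repeat 3 had 15.1 CPM summed over 14 mesenchymal markers, against 60.8 and 59.2 in PA + PS2 repeats 1 and 2. The medians of the 10 genes are also given without these libraries.

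The sequences upstream of RefSeq starts of these genes are shown first, as a description. Of the 10, 7 had an entry in the RefSeq promoter table for GRCm38.p6, the build also called mm10: Anxa1, Anxa2, Anxa5, S100a6, S100a11, Cd44 and Emp1, the last with 2 starts. The 250 bases upstream of each start were searched on both strands for the AP-1 motif TGANTCA, the TEAD motif GGAATG, the TATA motif TATAAA and the CArG box bound by SRF. Anxa2 (chr9:69453433-69453682, plus strand), S100a11 (chr3:93520246-93520495, plus strand) and Emp1 at its first start (chr6:135362681-135362930, plus strand) are shown because they hold the AP-1 motif. Anxa1 (chr19:20390672-20390921, minus strand) and S100a6 (chr3:90612644-90612893, plus strand) are shown beside them as examples of windows without it. Positions are counted from the RefSeq starts, which differ from the GENCODE gene bounds printed with each gene below. The windows of Anxa1 and of both Emp1 starts lie inside those bounds. Those of Anxa2, Anxa5, S100a6 and S100a11 lie partly inside them. Each sequence reads 5′ to 3′ on the strand of its gene, and capitals mark matches to any of the 4 motifs.
Anxa2: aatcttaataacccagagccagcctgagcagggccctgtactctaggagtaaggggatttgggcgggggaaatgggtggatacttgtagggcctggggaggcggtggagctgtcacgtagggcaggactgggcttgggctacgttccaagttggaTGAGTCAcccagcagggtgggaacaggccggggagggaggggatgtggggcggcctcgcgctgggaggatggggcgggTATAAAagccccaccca
S100a11: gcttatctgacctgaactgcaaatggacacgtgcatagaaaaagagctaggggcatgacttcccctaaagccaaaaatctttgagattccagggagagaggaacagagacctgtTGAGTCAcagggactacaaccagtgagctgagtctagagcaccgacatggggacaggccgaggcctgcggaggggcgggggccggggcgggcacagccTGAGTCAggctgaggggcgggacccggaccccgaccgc
Emp1: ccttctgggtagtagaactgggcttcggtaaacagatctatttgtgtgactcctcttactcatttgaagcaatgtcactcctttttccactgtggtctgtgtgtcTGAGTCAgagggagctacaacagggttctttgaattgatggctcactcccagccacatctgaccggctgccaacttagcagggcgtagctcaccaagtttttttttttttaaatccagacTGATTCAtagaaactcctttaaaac
Anxa1: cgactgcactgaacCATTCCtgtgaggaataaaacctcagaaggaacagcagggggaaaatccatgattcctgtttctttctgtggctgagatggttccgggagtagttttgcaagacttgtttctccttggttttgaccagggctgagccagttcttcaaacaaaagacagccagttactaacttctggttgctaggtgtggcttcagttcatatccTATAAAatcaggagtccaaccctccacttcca
S100a6: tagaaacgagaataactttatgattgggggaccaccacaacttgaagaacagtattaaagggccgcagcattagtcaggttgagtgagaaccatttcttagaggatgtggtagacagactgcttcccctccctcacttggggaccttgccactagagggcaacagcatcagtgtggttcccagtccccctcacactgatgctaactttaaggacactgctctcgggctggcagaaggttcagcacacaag

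The AP-1 motif stood at 95 bases upstream of the Anxa2 start, at 136 and 38 bases upstream of the S100a11 start, and at 145 and 25 bases upstream of the first Emp1 start. It was in 3 of the 8 upstream windows of these genes, against 6.75% of 32851 windows of the same length in the table. The TATA motif stood upstream of the RefSeq starts of Anxa2, at 17 bases, and of Anxa1, at 32 bases, and is in 12.4% of all windows. The TEAD motif was found once, on the opposite strand 236 bases upstream of the RefSeq start of Anxa1 (12.6% of all windows). The CArG box was found in none of the 8 (1.47% of all windows). The windows of S100a6, Cd44, Anxa5 and the second start of Emp1 held none of the 4 motifs. These matches describe the letters in the windows and do not show that a factor binds there. Any link between the motifs and the differences between groups was not tested.

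The 10 genes lay lowest in the PA + PS2 libraries. The level of each gene was lower in PA + PS2 than in control within every repeat number, in 30 of 30 such pairs. All 10 genes use the same 3 pairs of libraries here, so the 30 are not independent, and no share over all genes was taken. For 9 of the 10 all 3 PA + PS2 libraries lay below all 3 control libraries, which by itself makes each of their pairs lower. Of all genes tested, 6.54% lay apart in that direction and 5.38% in the other. S100a10 was the exception, with groups that overlapped. The lowest of the 9 libraries was PA + PS2 repeat 3 for 9 genes and PA + PS2 repeat 1 for S100a11. In the quasi-likelihood test of edgeR, adjusted over all genes, 0 of the 10 passed, and 0.0446% of all genes tested passed. At an unadjusted p under 0.05 there were 9 of the 10, against 5.63% of all genes, and DESeq2 passed 6 of the 10, all lower, against 1.19% of its genes in all, 1.1% lower and 0.0914% higher.

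**Figure D1:**
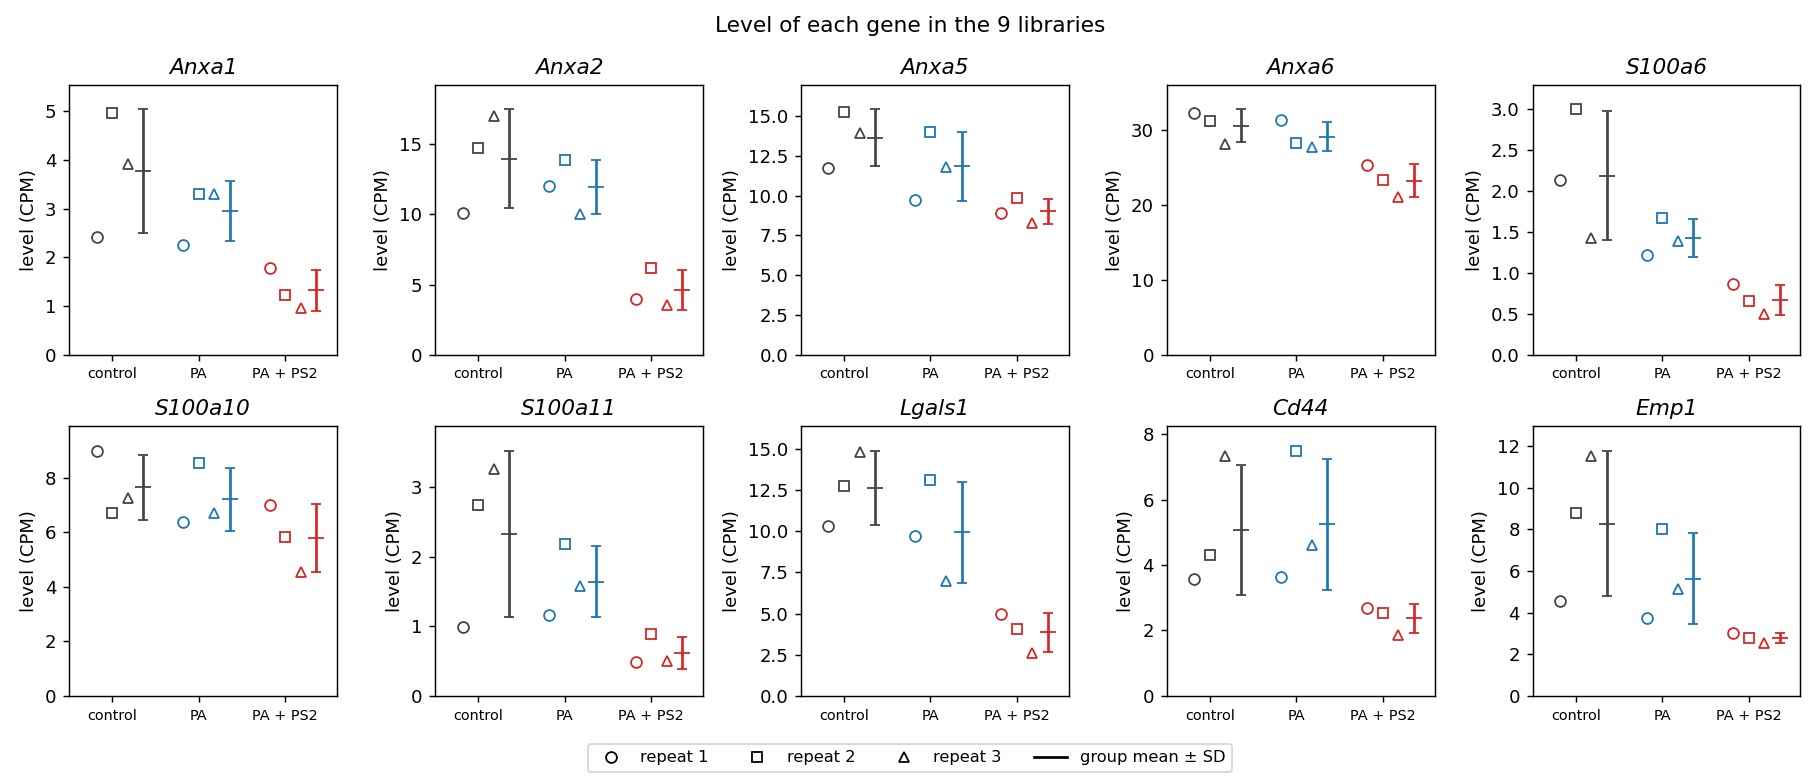
Level of each of the 10 genes in CPM (vertical axes, each starting at 0) in control, PA and PA + PS2; each point is 1 library, its shape gives the repeat, and the bar beside the points is the group mean ± SD. For 9 genes the 3 PA + PS2 points sit below all control points, while those of S100a10 overlap.

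Anxa2 encodes annexin A2, which links membranes to actin and helps to activate plasminogen at the cell surface (ENSMUSG00000032231, mm10 chromosome 9, 69453620 to 69491795). Its level was 10.1, 14.7 and 17.0 CPM in control repeats 1, 2 and 3, 12.1, 13.9 and 10 CPM in PA, and 3.99, 6.21 and 3.53 CPM in PA + PS2. The PA libraries lay within or just below the control range, and the PA + PS2 libraries lay below both other groups. Against control, Anxa2 in PA + PS2 stood at −1.60 ± 0.25 (log2 fold change ± standard error; edgeR adjusted p = 0.0537, and 0.00929 with the repeat as a block), or 3.05-fold lower in mean CPM. The repeat block is printed because libraries of the same repeat number tended to deviate together. This pairing is read from the data and not stated by the labels. Libraries of unlike repeat number were not correlated beside it, so it is not established. For PA + PS2 and control the correlations of the deviations were only 0.135 to 0.217.

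Anxa1 encodes annexin A1, a protein that limits inflammation through formyl peptide receptors (ENSMUSG00000024659, chromosome 19, 20373428 to 20390944). It was at 2.42, 4.96 and 3.91 CPM in control, 2.25, 3.31 and 3.31 CPM in PA and 1.78, 1.23 and 0.956 CPM in PA + PS2. The highest PA + PS2 library, repeat 1, lay just under the lowest of the PA and control libraries. The difference between PA + PS2 and control was −1.51 ± 0.33 (edgeR adjusted p = 0.127, or 0.059 when blocked by repeat), and it rests on 23 to 114 reads per library. Without control repeat 1 it was −1.75, with an edgeR adjusted p of 0.0241.

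Anxa5, whose product binds phosphatidylserine exposed on dying cells (ENSMUSG00000027712, chromosome 3, 36448923 to 36475894), was at 11.8, 15.3 and 13.9 CPM in control, 9.71, 14 and 11.8 CPM in PA, and 8.90, 9.87 and 8.28 CPM in PA + PS2. Its PA + PS2 libraries lay below all controls, but repeat 2 of PA + PS2 lay above repeat 1 of PA. Anxa6, an annexin of endosomes and the plasma membrane (ENSMUSG00000018340, chromosome 11, 54979108 to 55033445), was at 32.3, 31.2 and 28.1 CPM in control, 31.3, 28.2 and 27.7 CPM in PA, and 25.4, 23.2 and 21 CPM in PA + PS2. The 3 PA + PS2 libraries again lay under both other groups, by a small margin. In PA + PS2 against control Anxa5 stood at −0.60 ± 0.17 and Anxa6 at −0.40 ± 0.11 (edgeR adjusted p = 0.265 for each, or 0.059 for each when blocked by repeat).

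All 3 S100 genes lie on chromosome 3. S100a10, the partner of annexin A2 (ENSMUSG00000041959, 93555080 to 93564643), was at 9, 6.70 and 7.27 CPM in control, 6.39, 8.54 and 6.73 CPM in PA, and 7.02, 5.82 and 4.53 CPM in PA + PS2. PA + PS2 repeat 1 lay above control repeat 2, so the groups overlapped. The difference was −0.41 ± 0.21 (edgeR adjusted p = 1, or 0.628 when blocked by repeat), which does not show that the level was equal. S100a11, which ends 28.8 kb before S100a10 starts (ENSMUSG00000027907, 93520488 to 93526287) and encodes a partner of annexin A1, was at 0.986, 2.74 and 3.27 CPM in control, 1.17, 2.18 and 1.58 CPM in PA, and 0.481, 0.887 and 0.499 CPM in PA + PS2. Its value in PA + PS2 against control was the lowest of the 10, at −1.88 ± 0.47 (edgeR adjusted p = 0.183, or 0.0411 when blocked by repeat). Control repeat 1 lay close to the highest PA + PS2 library, and without it S100a11 stood at −2.25 with an edgeR adjusted p of 0.0196. Only 10 to 71 reads per library support S100a11, and at 10 reads counting alone gives an error of 31.6%.

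S100a6, whose product calcyclin is made by dividing cells, fibroblasts and astrocytes (ENSMUSG00000001025, 90612882 to 90624181), was at 2.14, 3.00 and 1.43 CPM in control, 1.21, 1.68 and 1.39 CPM in PA, and 0.866, 0.655 and 0.499 CPM in PA + PS2. Here control repeat 3, not repeat 1, was the lowest control. S100a6 stood at −1.70 ± 0.36 in PA + PS2 against control (edgeR adjusted p = 0.113, or 0.0449 when blocked by repeat). It rests on 12 to 69 reads per library.

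Lgals1 encodes galectin-1, a lectin that binds galactose-containing sugars and is made by mesenchymal cells, astrocytes and some neurons (ENSMUSG00000068220, chromosome 15, 78926725 to 78930465). Its level was 10.3, 12.8 and 14.8 CPM in control, 9.71, 13.1 and 6.99 CPM in PA, and 4.95, 4.05 and 2.58 CPM in PA + PS2. The PA + PS2 libraries were lower than all others, and PA repeat 3 stood between the groups. With Anxa2 it had the smallest adjusted p of the 10: −1.71 ± 0.28 in PA + PS2 against control, or 3.27-fold lower in mean CPM (edgeR adjusted p = 0.0537, or 0.0116 when blocked by repeat). Both genes passed without control repeat 1 (edgeR adjusted p = 0.00856 for Anxa2 and 0.0135 for Lgals1).

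Cd44 encodes a cell-surface receptor for hyaluronan, found on astrocytes, progenitors and mesenchymal cells (ENSMUSG00000005087, chromosome 2, 102811141 to 102901665). It was at 3.57, 4.30 and 7.32 CPM in control, 3.64, 7.50 and 4.62 CPM in PA, and 2.69, 2.54 and 1.87 CPM in PA + PS2. The PA and control libraries spanned the same range, with PA repeat 2 the highest of the 9. Cd44 stood at −1.09 ± 0.34 in PA + PS2 against control (edgeR adjusted p = 0.338, or 0.201 when blocked by repeat), and at −0.73 without control repeat 3.

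Emp1 encodes a membrane protein with 4 membrane-spanning segments, of the family of the myelin protein PMP22 (ENSMUSG00000030208, chromosome 6, 135362545 to 135383173). It was at 4.56, 8.78 and 11.5 CPM in control, 3.73, 8.04 and 5.15 CPM in PA, and 3.03, 2.78 and 2.54 CPM in PA + PS2. The PA + PS2 libraries were close to each other, and the controls were the most spread of the 3 groups, with repeat 1 nearest to PA + PS2. Emp1 stood at −1.57 ± 0.35 (edgeR adjusted p = 0.128, or 0.0345 when blocked by repeat), and at −1.86 with an adjusted p of 0.0126 without control repeat 1.

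The median log2 fold change of the 10 genes in PA + PS2 against control was −1.54, with 10 of 10 below 0, beside a median of 0.00 and 50.2% below 0 over all 15712 genes. With the repeat block 5 of the 10 passed, all lower (Anxa2, Lgals1, Emp1, S100a11 and S100a6), where 1.17% of all genes passed, 1.06% lower and 0.115% higher. Without control repeat 1 the median was −1.73 and 5 passed, against 1.08% of all genes. Without PA + PS2 repeat 3 the median was −1.38 and 0 passed, against 0.00618% of all genes. Leaving out control repeat 2 or 3, or PA + PS2 repeat 1, also left 0 passing, where 0 of all genes passed. Without PA + PS2 repeat 2 or PA repeat 2 there were again 0, against 2 of 16190 and 8 of 16030 genes. Leaving out PA repeat 1 or 3 left 1, against 0.111% and 0.0619% of all genes.

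**Figure D2:**
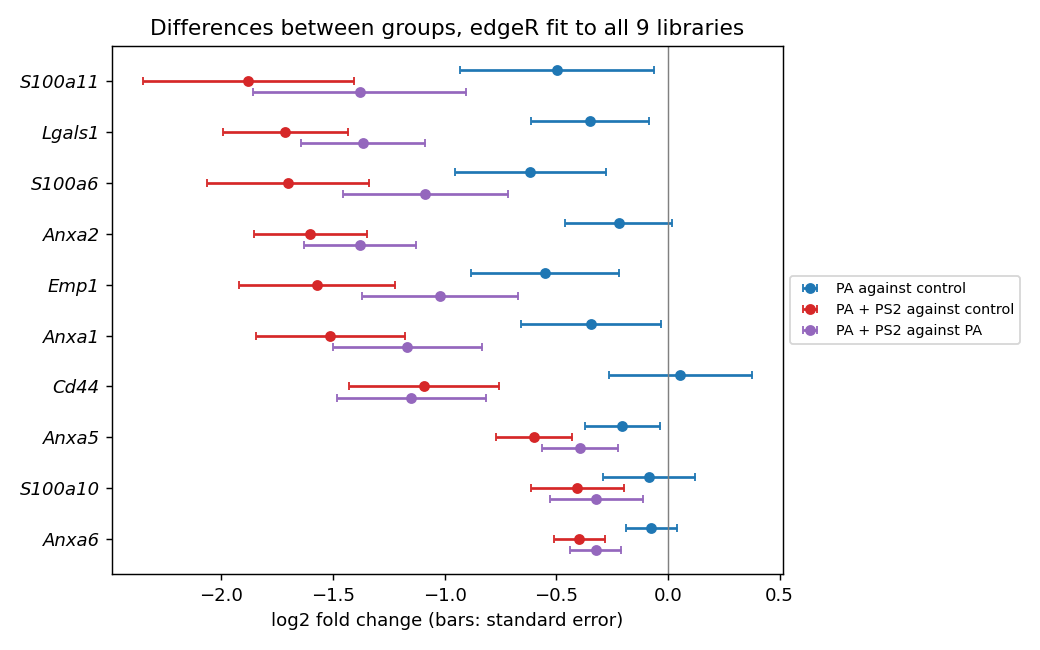
Log2 fold change (horizontal axis) of each gene in the 3 comparisons, with bars for the standard error of the edgeR fit to all 9 libraries. The values for PA + PS2 against control run from −1.88 for S100a11 to −0.40 for Anxa6, and those for PA against control from −0.62 for S100a6 to 0.06 for Cd44.

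PA was then set against control. Within a repeat number, PA was lower in 24 of 30 pairs, and in 3 of 3 repeats for Anxa1, Anxa5, Anxa6, S100a6 and Emp1. These 30 are not independent either, as all 10 genes use the same 3 pairs of libraries, and no share over all genes was taken. The groups of PA and control overlapped for all 10 genes, where 2.07% of all genes lay apart in the lower direction and 1.97% in the higher, and 0 of the 10 passed edgeR or DESeq2, each of which passed 0% of all genes. At an unadjusted p under 0.05 there were also 0 of the 10, against 1.22% of all genes. The median log2 fold change was −0.28, with 9 of 10 below 0, against −0.01 and 52.7% below 0 over all genes, and −0.44 without control repeat 1. S100a6 stood at −0.62 ± 0.34, Emp1 at −0.55 ± 0.33 and S100a11 at −0.50 ± 0.44 (edgeR adjusted p = 1 for each). Cd44 was the gene above 0, at 0.06 ± 0.32, and its sign turned when control repeat 1, control repeat 2 or PA repeat 2 was left out. Anxa6 stood at −0.07 ± 0.11 and S100a10 at −0.09 ± 0.21. The comparison shares its control libraries with that of PA + PS2 and control, so the 2 sets of values are not independent.

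Set directly against PA, the PA + PS2 libraries were lower for all 10 genes, with a median log2 fold change of −1.12 against 0.01 over all genes. The groups lay apart for 8 of the 10, against 6.32% of all genes lower and 3.32% higher, and overlapped for Anxa5 and S100a10. Anxa2 stood at −1.38 ± 0.25 and Lgals1 at −1.37 ± 0.28 (edgeR adjusted p = 0.237 for each). Cd44 stood at −1.15 ± 0.33. By edgeR 0 of the 10 passed, where 0% of all genes passed; 9 had an unadjusted p under 0.05, against 5.61% of all genes. DESeq2 passed 2, Anxa2 and Lgals1, against 0.691% of its genes, 0.657% lower and 0.0343% higher. With the repeat as a block 1 passed, Anxa2, against 0.363% of all genes, 0.337% lower and 0.0255% higher. For PA + PS2 and PA the repeat numbers were not shown to pair the libraries either, with correlations of deviations of 0.0147, 0.292 and 0.302 in repeats 1, 2 and 3. Without PA repeat 2, the PA library with the most Cd44, Emp1 and Lgals1, the median was −0.86, and without PA + PS2 repeat 3 it was −0.97.

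For the annexin A2 complex, the level of Anxa2 was also set against that of its partner. Levels per length, in CPM per kb of exon, were 2.71, 3.95 and 4.57 for Anxa2 and 7.42, 5.52 and 6 for S100a10 in the controls. In PA + PS2 they were 1.07, 1.66 and 0.947 for Anxa2 and 5.79, 4.80 and 3.74 for S100a10. The ratio of Anxa2 to S100a10 was 0.365, 0.715 and 0.761 in control, 0.613, 0.527 and 0.483 in PA, and 0.185, 0.346 and 0.253 in PA + PS2. The PA + PS2 ratios lay below those of both other groups, though repeat 2 of PA + PS2 came close to control repeat 1. The ratio was chosen after the values of the genes were seen and was given no test. For Anxa1 and its partner S100a11 the ratio was 0.320 ± 0.111 in control, 0.324 ± 0.052 in PA and 0.410 ± 0.212 in PA + PS2 (SD, n = 3), and the groups overlapped.

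**Figure D3:**
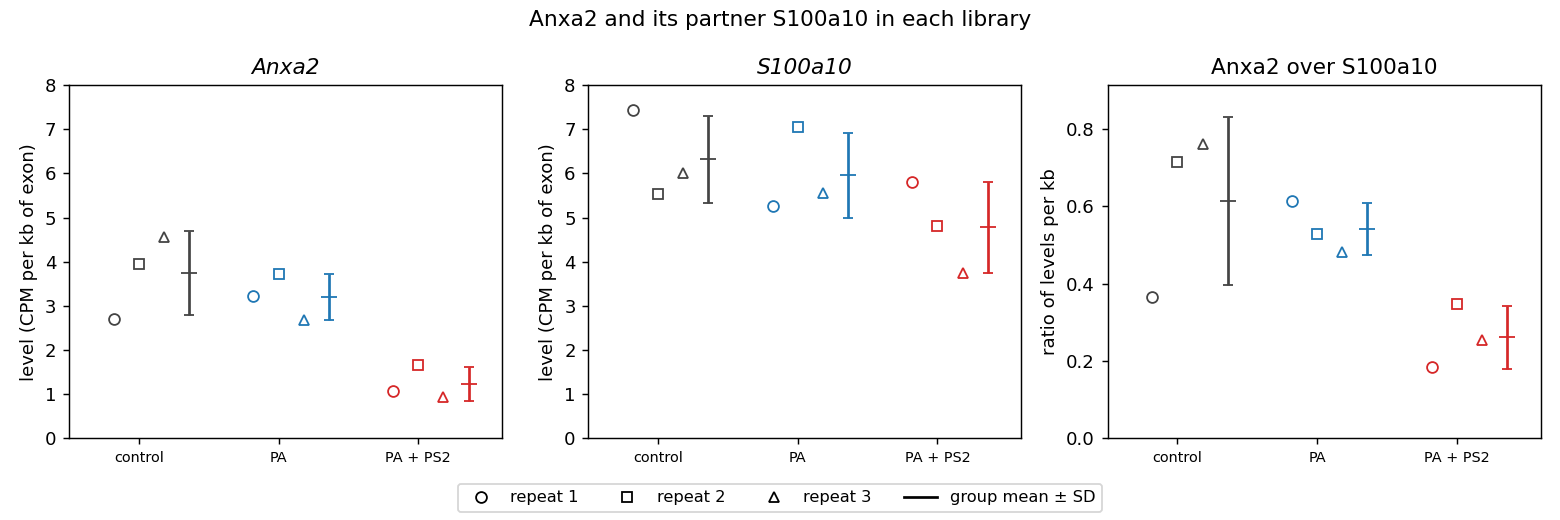
Levels of Anxa2 and S100a10 per kb of exon (left and middle, same vertical scale from 0) and their ratio (right) in each library; points are libraries, shapes are repeats and bars are the group mean ± SD. Anxa2 separates PA + PS2 from the other groups, while S100a10 overlaps between them.

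Per length, Lgals1 was the most abundant of the 10 in control, at 14 ± 2.5 CPM per kb of exon (SD, n = 3). It was followed by Anxa6 at 10.4 ± 0.737, Anxa5 at 7.68 ± 0.998 and S100a10 at 6.32 ± 0.988. S100a11 and Anxa2 came next, at 4.56 ± 2.34 and 3.74 ± 0.946. The lowest were S100a6 at 1.60 ± 0.576, Emp1 at 1.40 ± 0.59, Anxa1 at 1.29 ± 0.437 and Cd44 at 0.748 ± 0.293. Libraries of neighbours in this order did not overlap between Lgals1 and Anxa6, between Anxa6 and Anxa5, and between Anxa2 and S100a6, and overlapped elsewhere. In PA + PS2 the order was led by Anxa6 at 7.92 ± 0.735, then Anxa5 at 5.07 ± 0.452, S100a10 at 4.78 ± 1.03 and Lgals1 at 4.28 ± 1.33, of which the last 3 overlapped. In PA, Lgals1 at 11 ± 3.4 and Anxa6 at 9.91 ± 0.664 overlapped. Measured on the longest transcript, the level of S100a10 in control was 11.2 CPM per kb, above the 7.89 of Anxa5. On that length Anxa2, at 6.12, also lay above S100a11, at 4.56, and Emp1, at 2.85, above S100a6, at 2.79, and the libraries of Lgals1 and Anxa6 overlapped, so these orders depend on the length used.

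Other members of the same families were taken from lists. Of 8 other annexins 4 could be tested, and 0 passed in any comparison by edgeR. Anxa7, an annexin of secretory granules, was at 20.8 ± 1.54 CPM in control and 25.0 ± 3.02 in PA + PS2, and stood at 0.26 ± 0.13. Anxa3, in contrast, stood at −1.47 ± 0.33, from 5.98 ± 1.1 CPM in control to 2.16 ± 0.525 in PA + PS2, with groups apart (edgeR adjusted p = 0.143, or 0.0409 when blocked by repeat). Anxa4 and Anxa11 were near 1 CPM or below in every group, with −0.14 ± 0.42 and −0.30 ± 0.57.

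Of 13 other S100 genes only S100a16 could be tested, and S100a5, S100a8, S100a9 and S100g had 0 counts in all 9 libraries. S100a8 and S100a9 are the S100 genes of neutrophils. S100b, an astrocyte gene, was at 0.192 ± 0.136 CPM in control and 0.368 ± 0.139 in PA + PS2. S100a16 was at 1.56 ± 0.293 CPM in control, 2.59 ± 0.332 in PA and 1.54 ± 0.217 in PA + PS2, with PA above both other groups (0.73 ± 0.26 against control; edgeR adjusted p = 1). Among galectins Lgals3, a gene of phagocytic and reactive cells, went the other way from Lgals1: it was at 0.817 ± 0.218 CPM in control and 2.92 ± 0.669 in PA + PS2, with groups apart and a value of 1.83 ± 0.55 (edgeR adjusted p = 0.318). Lgals8 and Lgalsl, at 15.4 ± 2.19 and 86.6 ± 6.68 CPM in control, stood at −0.09 ± 0.19 and 0.02 ± 0.12. The relatives of Emp1 were Pmp22 at −0.64 ± 0.23, Emp2 at −0.34 ± 0.28 and Emp3 at −0.20 ± 0.48, and 0 of these 3 passed.

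Partners of Cd44 and of the annexin A2 complex were described in the same way. Of 14 hyaluronan and Cd44 genes, all tested, 11 lay below 0 in PA + PS2 against control, with a median of −0.19, and 0 passed (2 with the repeat block, both lower). The most abundant were Nf2, the merlin gene, at 0.02 ± 0.12, Rdx, encoding the linker radixin, at −0.04 ± 0.15, Cemip2, a hyaluronidase gene, at −0.17 ± 0.09, and Ezr, encoding the linker ezrin, at −0.44 ± 0.15. The 2 that passed with the block, named after their values were seen, were Msn, encoding moesin, the remaining linker of CD44 to actin, at −1.33 ± 0.25 (edgeR adjusted p = 0.0833, or 0.00984 when blocked by repeat), and Hmmr, a hyaluronan receptor gene of dividing cells, at −1.31 ± 0.44 (edgeR adjusted p = 0.466, or 0.0337 when blocked by repeat). Of 12 genes of the plasmin system and annexin partners 9 were tested, 6 lay below 0 with a median of −0.30, and 0 passed. Plat, the plasminogen activator gene, stood at −0.44 ± 0.18, Serpine2 at −0.30 ± 0.15, Kcnk3, a potassium channel gene, at −0.04 ± 0.14, and Ahnak, encoding a large partner of the annexin A2 complex, at −1.48 ± 0.40 (edgeR adjusted p = 0.227).

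Of 33 other symbols linked to reactive astrocytes, 19 could be tested, with a median of −0.43 in PA + PS2 against control, 11 below 0 and 0 passing (1, Vim, with the block). Vim, an intermediate filament gene of glia, progenitors and mesenchymal cells, was at 218 ± 28.1 CPM in control and 132 ± 14 in PA + PS2 and stood at −0.72 ± 0.12 (edgeR adjusted p = 0.0588, or 0.0124 when blocked by repeat). B3gnt5, H2-D1 and Fkbp5, the next most abundant, stood at 0.14 ± 0.24, 0.04 ± 0.24 and 0.02 ± 0.10. Of the 19 tested, 8 lay above 0, among them Gfap, named after its values were seen. Gfap was at 0.824 ± 0.72 CPM in control, 2.38 ± 0.224 in PA and 2.75 ± 1.84 in PA + PS2. It stood at 1.76 ± 0.69 in PA + PS2 against control, with groups that overlapped (edgeR adjusted p = 0.648). All PA libraries lay above all controls for Gfap.

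Markers of several cell types moved beside the 10 genes, and their part in the differences was not tested. In bulk RNA, fewer cells of a type and less RNA per cell cannot be told apart. Of 12 mesenchymal markers tested of 14, 12 lay below 0 in PA + PS2 against control, with a median of −1.68, and the summed level of all 14 was 143 to 209 CPM in control, 98.2 to 173 in PA and 15.1 to 60.8 in PA + PS2. Acta2, the smooth muscle actin gene, stood at −2.24 ± 0.46 and Col1a1, a chain of collagen I, at −2.16 ± 0.65 (edgeR adjusted p = 0.108 and 0.32, or 0.0297 and 0.0112 when blocked by repeat). The list also includes Pdgfra and Cspg4, at −2.46 ± 0.39 and −1.43 ± 0.37. Whether mesenchymal or other cells expressed them here was not tested. The 10 markers of dividing and progenitor cells had 9 below 0, a median of −0.88 and sums of 185 to 365 CPM in control, 236 to 321 in PA and 157 to 181 in PA + PS2. The 12 neuron markers had a median of 0.06, with 8 above 0, and sums of 6683 to 7307 CPM in control and 7045 to 7775 in PA + PS2.

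Astrocyte markers summed to 375 to 506 CPM in control, 455 to 491 in PA and 385 to 437 in PA + PS2. The control range overlapped both others, while every PA + PS2 sum lay below every PA sum. Slc1a2, Glul and Atp1b2 made up most of these sums, so the sums say little about the other astrocyte markers. In PA + PS2 against control these genes stood at −0.07 ± 0.12, 0.07 ± 0.14 and 0.16 ± 0.10. In PA + PS2 against control 8 of 11 tested were below 0, with a median of −0.25. In PA + PS2 against PA 9 of 11 were below 0, with a median of −0.77 and 6 apart lower, beside the median of −1.12 for the 10 genes in that comparison. Gjb6, an astrocyte gap junction gene, had 0 counts in all libraries. Microglia markers summed to 12.9 to 14.6 CPM in control and 7.9 to 10.6 in PA + PS2, with 6 of 8 below 0 and P2ry12, a defining microglia gene, at 0 in all control and PA + PS2 libraries. Endothelial markers summed to 6 to 9.02 CPM in control and 2.12 to 4.47 in PA + PS2, with 2 of 3 tested below 0 and Ly6c1 at 0 in all libraries. Oligodendrocyte lineage markers had a median of 0.00, with 5 of 10 below 0 and sums of 235 to 256 CPM in control, 227 to 279 in PA and 231 to 259 in PA + PS2. Cspg5 made up most of these sums, at 174 ± 19 CPM in control and 177 ± 6.49 in PA + PS2. The median covers moves in both directions, and with the repeat block Olig1 and Olig2 passed lower and Mag higher. In PA + PS2 against control Olig1 stood at −2.42 ± 0.51, Olig2 at −1.97 ± 0.45 and Mag at 2.24 ± 0.55. Their edgeR adjusted p was 0.11, 0.144 and 0.173, or 0.00687, 0.00953 and 0.0479 when blocked by repeat.

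**Figure D4:**
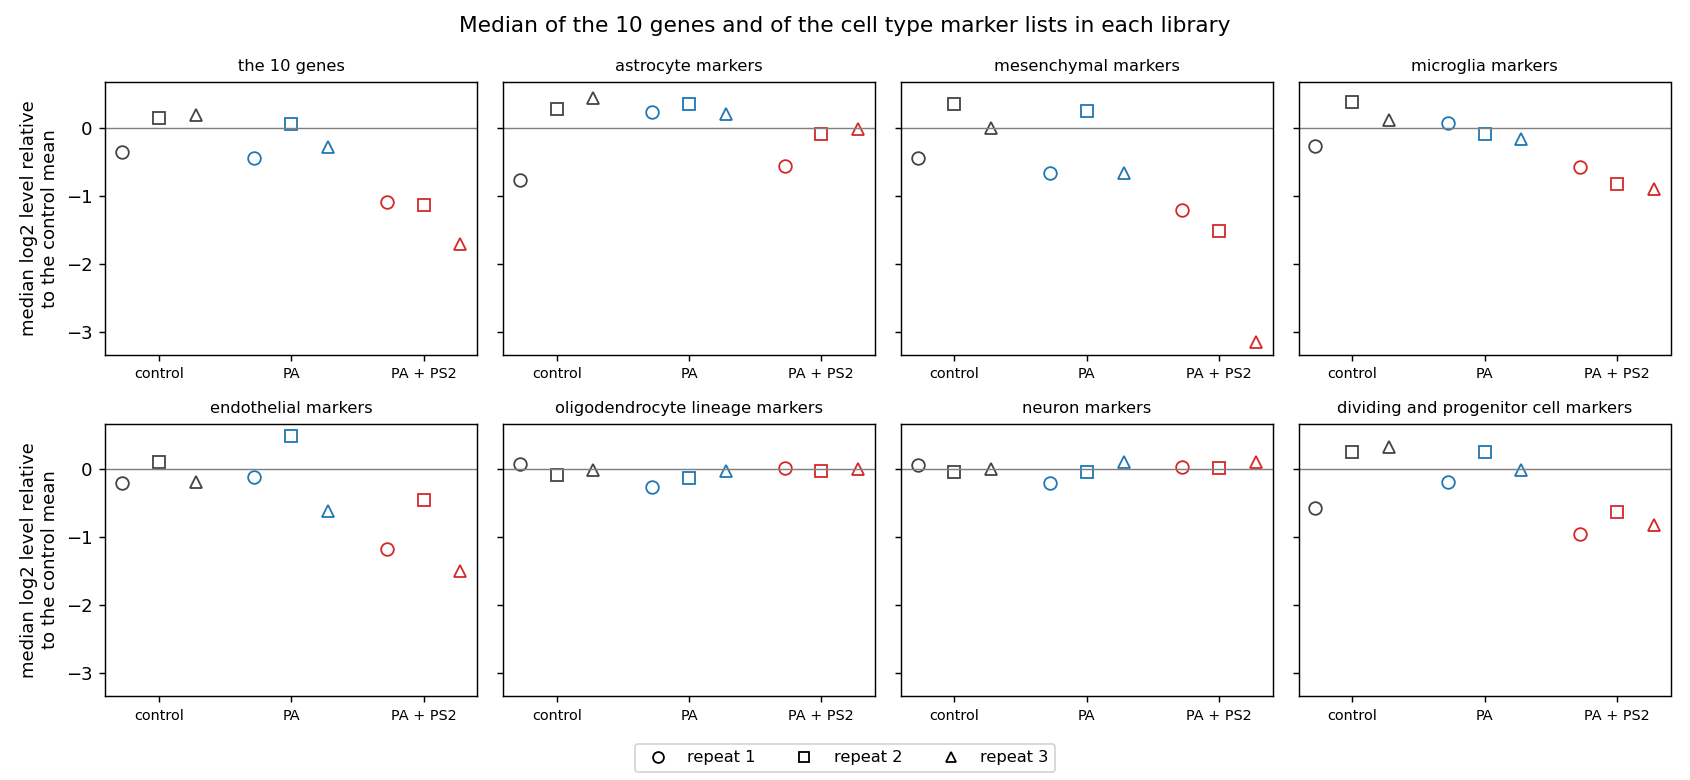
Median log2 level relative to the control mean (vertical axis) of the 10 genes and of 7 marker lists in each library; colours are groups and shapes are repeats. The median of the 10 genes runs from −1.70 to −1.09 in PA + PS2, the mesenchymal median from −3.15 to −1.21, and the neuron median from 0.01 to 0.10.

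The profile of the 10 genes across the libraries, taken as their median log2 level with the control mean set to 0, ran −0.35, 0.14 and 0.18 in control repeats 1, 2 and 3, −0.44, 0.05 and −0.29 in PA, and −1.09, −1.14 and −1.70 in PA + PS2. Likeness to it was measured as the root mean square difference over the 9 libraries, in log2 units, among 12264 protein-coding genes with a mean of at least 1 CPM, whose median distance was 0.83. The 8 nearest genes were Shroom3 (0.17), Cdk1 (0.17), Ajuba (0.18), Lamb2 (0.18), Cald1 (0.19), Ephx1 (0.20), Zfp36l1 (0.20) and Cnn2 (0.21). Shroom3, Cald1 and Cnn2 encode actin-binding proteins, Ajuba an adaptor of cell junctions, Lamb2 a laminin chain, Cdk1 the mitotic kinase, Ephx1 an epoxide hydrolase and Zfp36l1 a protein that binds AU-rich RNA. Shroom3, for example, was at 12.6, 14.1 and 18.7 CPM in control, 13.6, 13.7 and 11.9 CPM in PA and 7.94, 6.32 and 4.24 CPM in PA + PS2.

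Of the 10 genes themselves, Anxa1 (0.21) and Anxa2 (0.26) lay nearest to this median profile, and Anxa6 (0.59) and S100a10 (0.58) farthest from it. Anxa6 and S100a10 were the closest pair among the 10, at 0.18, followed by Anxa5 and Anxa6 at 0.25. The most distant pair was S100a10 and S100a11, at 0.94, which are also the closest pair in position on chromosome 3. Such distances depend on the size of the difference between groups as well as on its pattern. In PA + PS2 against control that size was smallest for Anxa6 and S100a10 and largest for S100a11.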

How the data were processed

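The series holds RNA-seq of 9 libraries, 3 each of control, PA and PA + PS2, grouped by their titles. The authors deposited raw read counts per Ensembl gene, 1 file per library. Per the submitters' processing notes the tools were cutadapt 4.2, STAR 2.7.5, HTSeq 2.0.2 and DESeq2 1.14.1 with build mm10; their roles, the annotation release and the strand setting are not given in the sources used here. Without a known strand setting, reads of genes that overlap on opposite strands may not be separated; Anxa2 shares 98 exon bases with Gm16144, which had a mean of 0.0213 CPM. The pseudogenes of S100a11 and Lgals1 could take reads of their parents. The labels' molecule reads polyA RNA while the kit is for total RNA. Names, positions and exon lengths came from GENCODE M21 (mm10), which matched 54165 of 54232 identifiers; promoter sequences came from RefSeq, GRCm38.p6.

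TMM scaling was used, and 1 quasi-likelihood model per gene was fitted to all 9 libraries (edgeR 4.0.16, R 4.3.3), which leaves 6 residual degrees of freedom. The filter was filterByExpr (minimum count 10, minimum total 15), and p-values were adjusted by Benjamini and Hochberg over all 15712 genes, with a threshold of 0.05. A standard error is the size of the log2 fold change divided by the root of the F statistic. Alternatives were size factors of the DESeq2 type, DESeq2 1.42.0, no filter, only the 6 libraries compared, the repeat as a block and each library left out in turn. Log2 profiles used a prior count of 2.

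The repeat numbers were checked for pairing by the correlation, across genes, of deviations from the group means. Same-numbered libraries gave 0.183, 0.217 and 0.135 for PA + PS2 and control, and 0.422, 0.365 and 0.28 for PA and control, all over 0.1; the pairing is read from the data. For PA + PS2 and PA they gave 0.0147, 0.292 and 0.302. Libraries of unlike repeat number were not correlated for comparison, so pairing was not established for any of the 3 groups.

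The genes, lists and tests were chosen with earlier results of these data known. All 10 genes are named; of each other family or partner list the 4 genes with the highest mean CPM, and of each marker list up to 3, are those open to naming, plus any that passed. Genes outside this rule are named where a statement needs them. No library was left out. A result of the partner lists is not reported here.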

Additional observations from a re-analysis of the deposited data

How the results depend on the processing

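Every one of the 10 genes stayed below 0 in PA + PS2 against control and against PA under all alternatives run. Of the 10, the number passing in PA + PS2 against control was 0 in the fit as reported, 2 with size factors of the DESeq2 type, 2 with only the 6 libraries compared, 5 with the repeat block, 6 with DESeq2 and 7 without the filter on low counts, and 0 to 5 when 1 library was left out. Over all genes the counts were 7 as reported and 17, 28, 184, 208 and 365 in the same order, and 0 to 175 with 1 library left out, the highest without control repeat 1. In PA + PS2 against PA 0 of the 10 passed as reported, 1 with the repeat block, 2 with DESeq2, 5 without the filter and 0 to 1 with 1 library left out, beside 0, 57, 121, 330 and 0 to 37 over all genes. Pairing by repeat number was not established for this or the other comparisons. In PA against control 0 of the 10 passed under every alternative, and 23 of all genes passed without the filter. The block changed no other call of the 10 genes. In PA against control S100a10 ran from −0.23 to 0.0485 with 1 library left out, above 0 without control repeat 1, and Cd44 from −0.29 to 0.42, below 0 without control repeat 1 (−0.14), control repeat 2 (−0.05) or PA repeat 2. The cause of these shifts was not tested. On the longest transcript 6 of the 10 control levels per kb moved by more than 1 SD, to 2.25 for Anxa1, 6.12 for Anxa2, 12.3 for Anxa6, 2.79 for S100a6, 11.2 for S100a10 and 2.85 for Emp1. Depth limits S100a11 and S100a6 most, with as few as 10 and 12 reads in a library.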

Other observations

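The 10 genes were also set beside the median profile of each marker list by the same root mean square difference over the 9 libraries, a comparison chosen after their values were seen. Lgals1 lay nearest to the mesenchymal markers, at 0.36, as did S100a6 at 0.52, with the endothelial markers at 0.55. S100a11 lay at nearly the same distance from the mesenchymal, dividing-cell and endothelial markers, at 0.59, 0.60 and 0.61. Cd44 lay nearest to the markers of dividing and progenitor cells, at 0.30. Emp1 lay at 0.53 from them, with the endothelial, mesenchymal and microglia markers close behind at 0.57, 0.59 and 0.60. Anxa2 lay nearest to the endothelial markers, at 0.41, of which only 3 were tested, and next to the dividing-cell markers at 0.51. Anxa1 lay at nearly the same distance from the microglia, dividing-cell and mesenchymal markers, at 0.48, 0.49 and 0.50.

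Anxa6 and S100a10 lay nearest to the oligodendrocyte lineage markers, at 0.26 and 0.30, and next nearest, respectively, to microglia markers at 0.28 and neuron markers at 0.34. Anxa5 lay at 0.25 from both the microglia and the dividing-cell markers. These distances follow the size of the difference between groups as well as its pattern, so they name no cell of origin.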
